A study of Mus musculus with 12 samples.

Results

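Livers of C57BL/6N mice fed a high-fat diet were compared with livers of mice of the same strain fed regular chow, without any injection in either group. The comparison used the 6 libraries of the 12 in the series that the authors set side by side in their diet table, namely chow replicates 8, 17 and 19 and high-fat diet replicates 4, 30 and 38. Mice were 6 weeks old when the feeding period began, and it lasted 15 weeks; the diet served to make the mice obese. The labels give no genetic change, no sex and no time of day of collection, and they do not state that each replicate is a separate animal, so p-values measure only the spread between these samples. Total RNA from pieces of liver was sequenced on Illumina libraries. The remaining 6 samples came from high-fat-diet mice injected intraperitoneally for 4 days, once daily, with vehicle (30% DMSO in corn oil; replicates 15, 23 and 55) or with pregnenolone 16α-carbonitrile at 50 mg/kg (PCN, a ligand of the pregnane X receptor in rodents; replicates 5, 11 and 27).

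The liver takes up dietary fat and sugar, stores and exports lipid, makes most plasma proteins and clears steroids and foreign compounds. Many of its genes differ between male and female mice, because the pituitary releases growth hormone in separate pulses in males and almost continuously in females, and the transcription factor STAT5 carries that pattern to hepatocyte genes. Long feeding of a fat-rich diet is known to fill hepatocytes with lipid droplets and to bring changes in resident macrophages and in stellate cells, the matrix-making cells of the liver.

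The diet table listed 1226 genes, each with a deposited adjusted p under 0.05, of an estimated 25255 genes that the authors tested. That is 4.85% of the genes tested (2.81% higher and 2.05% lower with high-fat diet), and 10.2% of the genes with a mean of at least 50 normalized counts in the libraries with complete counts. Counts of chow libraries were at hand only for these genes and for 1644 more that were not called here. Those 1644 were listed because the authors called them between the same chow libraries and an injected group, so sums and counts over members with chow counts describe members selected for a difference from chow. In what follows, a gene is said to have risen or fallen with high-fat diet where the authors' deposited table called it, a level is a normalized read count (the deposited count divided by the size factor of its library), and a fold is the ratio of the group means of 3 libraries each. A second test on the same counts was edgeR's quasi-likelihood test, adjusted by Benjamini-Hochberg for the 1226 listed genes only. The adjustment ran over the 25255 genes, with unlisted genes entered as if at the largest p. It passed 117 of the 1226 genes, 91 higher and 26 lower, and 1222 had an unadjusted edgeR p under 0.05. The 117 are 0.463% of the 25255, of which the unlisted genes could not pass. Fewer passed edgeR when a library was left out. There were 29 genes without chow replicate 8, 10 without 17 and 15 without 19, and 10 without high-fat diet replicate 4, 75 without 30 and 22 without 38. For 1 gene in 3 libraries against 3, the smallest two-sided p of an exact permutation test is 0.1.

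Summed counts of the 3 high-fat diet libraries were between 7466378 and 38161486, and size factors were between 0.8014 and 1.1837 in chow and between 0.4602 and 2.0558 with high-fat diet. High-fat diet replicate 38, the shallowest library, lay farthest from the chow mean among its group in 844 of the 1226 called genes, and chow replicate 8 lay nearest to the high-fat diet mean among the chow libraries in 603. The libraries carried the RNA of liver: 10 of 10 hepatocyte markers had counts in every high-fat diet library, none was at 0, and 7 had chow counts. In bulk tissue, fewer cells of a type and less RNA per cell cannot be told apart.

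Of the 1226 genes 709 were higher and 517 were lower with high-fat diet. The rises were larger than the falls: the median fold was 2.04 among the higher genes and 1.55 among the lower genes, and 367 of the higher but 98 of the lower genes differed at least 2-fold. The 3 libraries of one group lay wholly above or below the 3 of the other in 1221 of the 1226 genes (99.6%), which follows in part from the call itself. The 5 exceptions were Gm24497, Klf6, Steap4, Mup2 and Socs2. Protein-coding genes made up 1155 of the 1226. The 2 genes without a count in any chow library were Cyp2b13, a female-biased cytochrome P450, and Timp1, an inhibitor of matrix metalloproteinases.

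**Figure D1:**
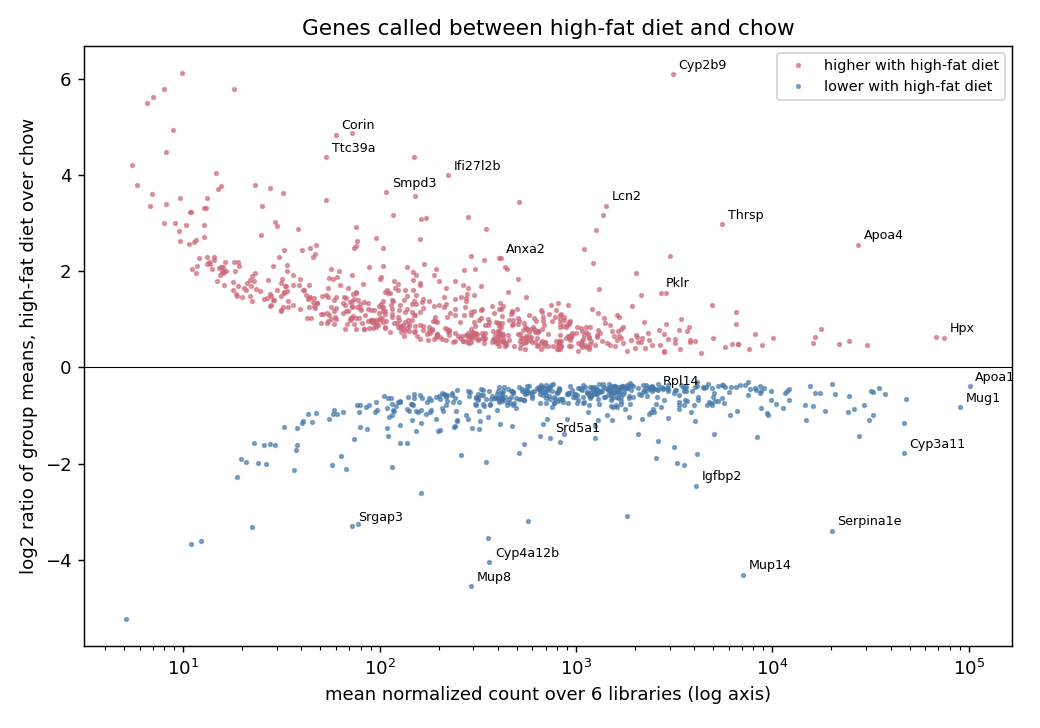
Each point is 1 called gene, with the mean normalized count over the 6 libraries on a log horizontal axis and the log2 ratio of group means, high-fat diet over chow, on the vertical axis; the 2 genes at 0 in chow are not drawn. The 709 higher genes reach larger ratios than the 517 lower genes, Cyp2b9 stands at 6.10 and Mup8 at -4.55, and abundant genes such as Hpx and Apoa1 differ by less than 1 log2 unit.

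The diet response was read through 47 gene lists of pathways and 12 lists of cell type markers, chosen with earlier results of these data known. For each list the share called, in either direction, among members with a mean of at least 50 is to be read against the 10.2% of all such genes (5.58% higher and 4.58% lower with high-fat diet). Lists with at least 10 members lower were the ribosomal proteins, male-biased genes, major urinary proteins and complement and coagulation genes. Those with at least 10 higher were the glycolysis, female-biased, actin, lipid droplet and interferon-induced genes and the macrophage markers.

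**Figure D2:**
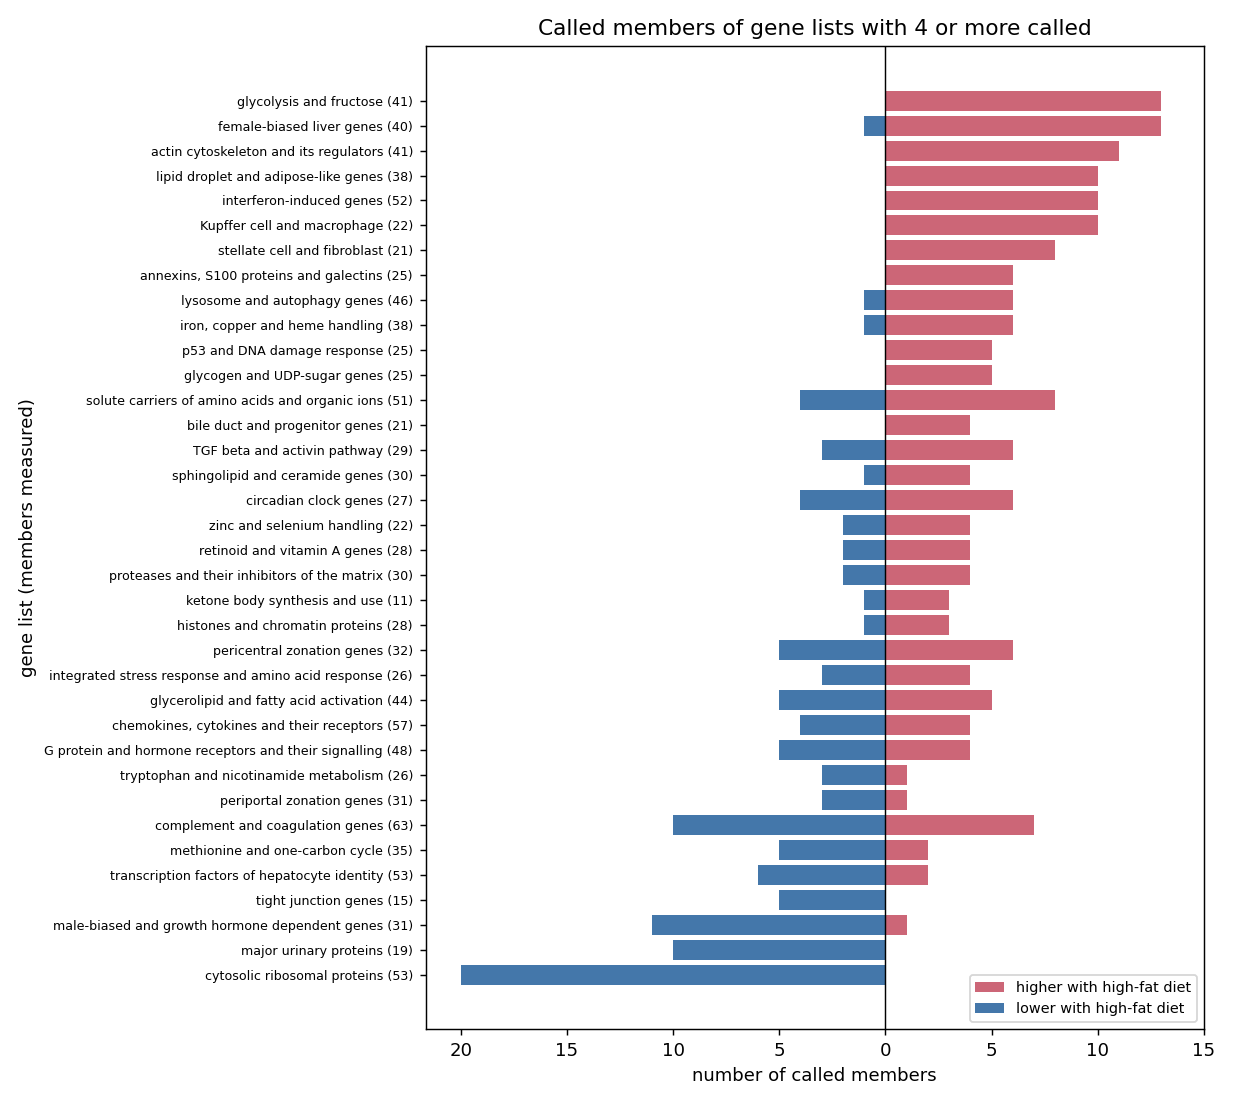
Bars count the called members of each of the 36 gene lists with at least 4 called, to the right for genes higher and to the left for genes lower with high-fat diet; the number measured stands in parentheses. Cytosolic ribosomal proteins (20 lower, 0 higher) and glycolysis and fructose genes (13 higher, 0 lower) lie at the ends.

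Of the genes known to be more abundant in female than in male mouse liver, nearly all that were called rose with high-fat diet, and of the male-abundant genes nearly all that were called fell. Among 40 female-biased genes measured, 13 rose, 1 fell and 26 were not called; among those with a mean of at least 50, 12 of 23 were called (52.2%). Among 31 male-biased or growth hormone dependent genes measured, 11 fell, 1 rose and 19 were not called, and 12 of the 25 with a mean of at least 50 were called (48%). Of the 25 female-biased genes with chow counts, called or not, 18 had a higher and 7 a lower mean with high-fat diet. Of the 18 male-biased genes with chow counts, 16 had a lower and 2 a higher mean. DESeq2 was refitted with the dispersion trend of uninjected and vehicle-injected high-fat diet livers. The refit kept 11 of the 13 female-biased rises and 9 of the 11 male-biased falls. Without high-fat diet replicate 38 it kept 10 and 7, and without chow replicate 8 it kept 11 and 10.

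Cyp2b9 and Cyp2b13, neighbouring cytochrome P450 genes that hydroxylate steroids and are female-biased in mouse liver, had the steepest rises among these lists. Cyp2b9 is ENSMUSG00000040660, chr7:26173411-26210661 on the plus strand of GRCm38, and is protein-coding. The sequences before their RefSeq start sites (GRCm38.p6, plus strand, chr7:26173159-26173408 for Cyp2b9 and chr7:26061245-26061494 for Cyp2b13) are shown because the pair moved together from nearly identical promoters: 2 of the 300 bases around the start differ, both upstream, and these are in capitals.
Cyp2b9: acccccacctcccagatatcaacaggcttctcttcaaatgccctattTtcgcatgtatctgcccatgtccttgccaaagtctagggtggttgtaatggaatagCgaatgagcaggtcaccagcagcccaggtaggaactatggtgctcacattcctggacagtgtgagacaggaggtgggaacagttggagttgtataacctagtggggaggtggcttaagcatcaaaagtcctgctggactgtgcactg
Cyp2b13: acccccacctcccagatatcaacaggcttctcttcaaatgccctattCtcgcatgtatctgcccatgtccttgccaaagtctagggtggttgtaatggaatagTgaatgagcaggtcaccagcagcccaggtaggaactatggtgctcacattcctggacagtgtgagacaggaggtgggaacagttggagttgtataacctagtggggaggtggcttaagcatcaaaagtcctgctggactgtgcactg
Reads of such close copies may be split between them by the counting, so their separate levels are uncertain.

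Cyp2b9 had 204, 33.7 and 31.4 normalized counts in chow replicates 8, 17 and 19 and 6555, 5844 and 5984.5 in high-fat diet replicates 4, 30 and 38. It was 68.4-fold higher with high-fat diet (edgeR quasi-likelihood adjusted p = 0.0229), and 188-fold without chow replicate 8, the only chow library above 100 normalized counts. The 3 high-fat diet libraries lay close together and far above every chow library. Cyp2b13 had no count in any chow library and 69.1, 42.3 and 137 normalized counts with high-fat diet, at least 80.3-fold higher when a floor of 3 counts over the chow group is used.

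Slc22a27, a female-biased organic anion transporter, had 35.5, 25 and 9.7 normalized counts in chow and 321, 203 and 311 with high-fat diet, an 11.9-fold rise (edgeR adjusted p = 0.0171). Cyp2a22, a cytochrome P450 outside the list, rose 10.8-fold, from 139, 67.4 and 55.2 to 995, 678 and 1143 normalized counts, and Cyp2a4, a testosterone hydroxylase, rose 8.64-fold. In Slc22a27, Cyp2a22 and Cyp2a4 the groups did not overlap, as in 99.6% of all called genes, and high-fat diet replicate 30 was the lowest of its group. Ntrk2, which encodes the neurotrophin receptor TrkB, had 54.1, 8.7 and 7.6 normalized counts in chow and 178, 232 and 224 with high-fat diet, 9.01-fold higher and 25.9-fold higher without chow replicate 8. Fmo2, a flavin monooxygenase, rose 1.96-fold with little spread in either group. Cd36, a fatty acid receptor, and Vldlr, the very low density lipoprotein receptor, rose 2.44-fold and 3.13-fold. Cyp3a44 was the one female-biased gene that fell, from 92.9, 99.8 and 107 to 37, 20.8 and 26.1 normalized counts (3.58-fold).

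Among the male-biased genes, Cyp4a12b, a fatty acid and arachidonic acid hydroxylase, had 639, 550.3 and 862 normalized counts in chow and 24.3, 82.2 and 17.4 with high-fat diet. That was a 16.6-fold fall (edgeR adjusted p = 0.0242), or 32.8-fold without high-fat diet replicate 30, the highest library of its group. Its neighbour Cyp4a12a was not called, with 2115.5, 1974 and 2017 against 883, 1730.0 and 432 normalized counts. Serpina1e, an alpha-1-antitrypsin gene, fell 10.6-fold, from 15569.5, 55401 and 39109.6 normalized counts to 2663, 7241 and 535, and 22.9-fold without high-fat diet replicate 30. Its chow libraries differed more than 3-fold among themselves, and it did not pass edgeR (adjusted p = 0.162). Elovl3, a fatty acid elongase, fell 3.97-fold, the steroid glucuronosyltransferases Ugt2b1 and Ugt2b38 fell 2.74-fold and 2.7-fold, and Cyp2d9, a steroid hydroxylase, fell 1.74-fold.

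Genes of the growth hormone signal itself were only in part called. Socs2, a STAT5 target that damps growth hormone signalling, fell 2.5-fold, from 106, 342 and 211 to 53.5, 104 and 106.5 normalized counts, but its groups overlapped by the lowest chow library. Stat5a rose 1.61-fold, from 247.5, 228 and 248.7 to 408, 371 and 385. Igf1, the main growth hormone dependent hormone of the liver, was not called, with 9958, 11900.5 and 10637 normalized counts in chow and 7605, 8990.0 and 5648 with high-fat diet. Bcl6, a male-biased repressor, was not called either, with 427.5, 447 and 307 against 462, 562 and 211. Cux2, a regulator that is abundant in female liver, had under 10 normalized counts in each of the 6 libraries.

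**Figure D3:**
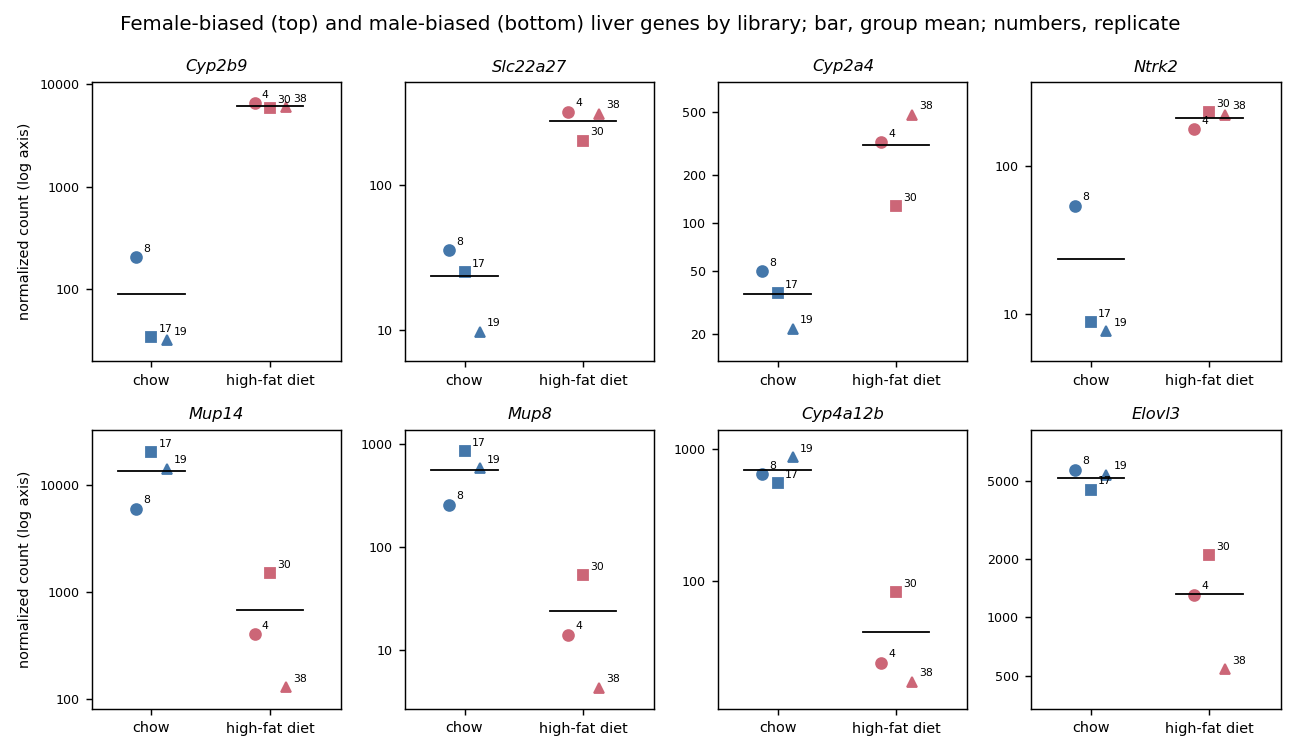
Points are normalized counts of 1 library each on log axes, with chow at the left and high-fat diet at the right of each panel, the replicate number beside the point and the group mean as a bar. The 4 female-biased genes of the top row are higher and the 4 male-biased genes of the bottom row lower in every high-fat diet library; chow replicate 8 is the highest chow library in the top row, and high-fat diet replicate 30 the highest of its group in the bottom row.

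The major urinary proteins (Mups) are pheromone carriers that male mouse liver secretes in large amounts, encoded by a cluster of near-identical genes on chromosome 4. Of 19 measured, 10 fell and none rose, and 8 of the 16 with a mean of at least 50 were called (50%). Summed over the 11 Mups with chow counts, the level was 109392, 161451 and 168999 normalized counts in chow and 47896, 72437 and 19672 with high-fat diet. The groups did not overlap, with a ratio of 0.318 between their means. Most of the sum in every library came from Mup3, which was not called. All 11 were lower with high-fat diet on the mean. A DESeq2 refit kept 8 of the 10, but 4 without high-fat diet replicate 38.

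The stretch that holds the TATA box of 4 of the fallen Mups is shown for how alike the genes are (RefSeq, GRCm38.p6, minus strand of chromosome 4). Whether this likeness bears on their falls was not tested. Capitals mark the TATA box, TATATAA. Of the 14 Mups with a RefSeq start-site window, 11 held the same run from the TATA box to the last base shown.
Mup2, chr4:60139871-60139943: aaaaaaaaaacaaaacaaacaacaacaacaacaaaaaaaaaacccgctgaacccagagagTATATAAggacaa
Mup9, chr4:60421971-60422043: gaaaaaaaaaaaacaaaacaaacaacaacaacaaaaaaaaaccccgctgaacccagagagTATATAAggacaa
Mup14, chr4:61303974-61304046: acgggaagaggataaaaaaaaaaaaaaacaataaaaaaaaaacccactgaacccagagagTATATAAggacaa
Mup15, chr4:61439717-61439789: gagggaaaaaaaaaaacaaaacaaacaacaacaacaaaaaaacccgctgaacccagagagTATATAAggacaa
The coding copies are also very alike, so reads may be assigned to the wrong member, and single Mup levels are uncertain.

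Mup14 had 6030.5, 20413 and 14221 normalized counts in chow and 405, 1507 and 130.4 with high-fat diet, a 19.9-fold fall. Mup8 had 258, 851 and 579 against 14.1, 53.5 and 4.3, a 23.4-fold fall and the only Mup to pass edgeR (adjusted p = 0.0428). In both genes high-fat diet replicate 30 was the highest of its group, and without it the falls were 50.7-fold and 61.0-fold. The Mup8 level in high-fat diet replicate 38, the shallowest library, rests on few reads. Mup15 fell 11.7-fold and Mup9 8.48-fold; without high-fat diet replicate 30 the values were 27.6 and 15.5, and without chow replicate 17 they were 6.93 and 4.71. Mup16 fell 9.1-fold. Mup20, also called darcin, a pheromone that is distinct in sequence from the cluster's core, fell 1.94-fold, from 8873, 12982 and 15213 to 6241, 6985 and 5848 normalized counts. Mup3, an abundant Mup, was not called, with 90469.6, 116302 and 132498 in chow and 40079, 61486 and 12949 with high-fat diet, although its groups did not overlap.

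Chow replicate 8 was the lowest chow library in 9 of the 10 fallen Mups and the highest in 9 of the 13 female-biased rises, with Cyp2b13, tied at 0, counted in. High-fat diet replicate 30 was the highest of its group in 10 of the 10 Mups and 10 of the 11 male-biased falls.

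STAT5's palindrome, TTCNNNGAA, searched on both strands in the 300-base RefSeq start-site windows, occurred in 0 of 6 windows of fallen Mups, 0 of 7 of fallen male-biased genes and 0 of 10 of risen female-biased genes. It occurred in 8.47% of all 27025 windows, in 7.34% of 531 windows of genes higher and in 5.51% of 399 windows of genes lower with high-fat diet. The sets of 6, 7 and 10 windows are too small for 0 to be told from the share of all windows. Windows were found for 930 of the 1226 called symbols, and the absence of these letters from a window says nothing of sites elsewhere.

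Genes outside these lists also gave large single rises. Corin, a membrane protease that activates natriuretic peptides, had 7.6, 1.2 and 3.2 normalized counts in chow and 134, 51.1 and 161 with high-fat diet, 28.6-fold higher and 51.3-fold without chow replicate 8. Ttc39a, a tetratricopeptide repeat gene, had 7.6, 5 and 2.2 against 82.7, 62.3 and 161 (20.7-fold). Both were close to absent in chow and clearly counted in all 3 high-fat diet libraries. Ly6d, a surface protein anchored to the membrane by a lipid, had 25.3, 10 and 6.5 normalized counts in chow and 191, 87 and 582 with high-fat diet. It was 20.6-fold higher, 9.98-fold without high-fat diet replicate 38 and 34.8-fold without chow replicate 8. Lcn2, an iron-siderophore-binding acute phase protein, had 291, 139.8 and 329 against 2415, 3119 and 2277, 10.3-fold higher, with all 3 high-fat diet libraries more than 6 times the highest chow library.

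Srd5a1, steroid 5-alpha-reductase, which converts testosterone to dihydrotestosterone, fell with little spread in either group. It had 1089, 1066 and 1081.5 normalized counts in chow and 402, 394 and 378 with high-fat diet, 2.76-fold lower (edgeR adjusted p = 0.00509). The groups were far apart beside a spread within each group of a few percent. The gene (ENSMUSG00000021594) lies at chr13:69573449-69611442 on the minus strand.

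Srgap3, a GTPase-activating protein for Rac, fell to an even low level. It had 126, 109.8 and 160.1 normalized counts in chow and 13.6, 13.6 and 13 with high-fat diet, 9.84-fold lower (edgeR adjusted p = 0.00509). The 3 high-fat diet libraries differed by less than 1 normalized count, though the value of replicate 38, the shallowest library, rests on few reads. Avpr1a, the vasopressin receptor of pericentral hepatocytes, fell 6.14-fold, from 123, 368 and 344 to 44.8, 47.9 and 43.5. Igfbp2, a secreted binding protein for insulin-like growth factors, fell 5.49-fold, from 4195, 7663 and 8922 to 1271, 1808 and 706, and Cadm4, a cell adhesion molecule, fell 4.31-fold. These 4 genes were named under a rule that required groups that do not overlap.

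Among the largest absolute differences, Apoa4, an apolipoprotein of triglyceride-rich particles, had 10947, 6185.5 and 6839 normalized counts in chow and 42466, 27473 and 70773 with high-fat diet (5.87-fold). Hpx (hemopexin) and Hp (haptoglobin), which bind free heme and hemoglobin, rose 1.54-fold and 1.55-fold, Hpx from 53645, 59077 and 65152 to 83339, 82791 and 107182 normalized counts. Thrsp, a lipogenic regulator, rose from 1616, 581.5 and 1579 to 10589, 10272 and 8796, and Alas1, the first enzyme of heme synthesis, rose 1.47-fold. On the other side, the xenobiotic oxidase Cyp3a11 fell from 63266, 83398 and 71977 to 23282, 10944 and 29009.9 normalized counts. Mug1, a broad protease inhibitor of plasma, fell 1.78-fold, Apoa1, the main protein of high density lipoprotein, 1.32-fold, and Acsl1, an activator of long fatty acids, 1.58-fold. The fatty acid omega-hydroxylases Cyp4a10 and Cyp4a14 fell 2.67-fold and 2.23-fold, and Cyp2c29, a cytochrome P450 of drug and fatty acid metabolism, fell 2.14-fold.

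Among the messenger RNAs of cytosolic ribosomal proteins, the parts of the translation machinery, 20 of 53 measured were lower by small, even amounts in the authors' deposited table and none was higher. None of the 20 passed edgeR or a refit of DESeq2 after adjustment, and all 20 had an unadjusted p under 0.05 in both, so the call of each single gene rests on the authors' test. All 20 were among the 52 with a mean of at least 50 (38.5%). The 20 had a median log2 ratio of -0.42. Rpl14 had 2761, 3038.5 and 3274 normalized counts in chow and 2393, 2105 and 2049 with high-fat diet (1.39-fold). Rps28 was 1.39-fold lower, and Rps24 had 2785, 2833 and 3363 against 2206, 2159.5 and 2245 (1.36-fold). In each of these 3 genes every high-fat diet library lay below every chow library, and groups did not overlap in 99.6% of all called genes.

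Chow counts were also at hand for 19 ribosomal protein genes that were not called, so 39 of the 53 could be followed. The 19 were listed because they differed between the same chow libraries and an injected high-fat diet group, so their direction here is not independent of that. All 39 had a lower mean with high-fat diet, and in 37 of them the groups did not overlap. Groups also did not overlap in 99.6% of all 1226 called genes, so this count is not particular to ribosomal proteins. The median ratio to the gene's own chow mean was 0.915, 0.988 and 1.09 in chow replicates 8, 17 and 19 and 0.809, 0.742 and 0.752 in high-fat diet replicates 4, 30 and 38. The sum over the 39 genes was 108175, 116835 and 129638 normalized counts in chow and 95742, 88359 and 89394 with high-fat diet. Many ribosomal protein genes have processed pseudogenes, and reads may be shared with those. Of 45 oxidative phosphorylation subunits 1 rose and none fell, and none of 13 mitochondrially encoded messenger RNAs and none of 10 cytosolic heat shock proteins was called.

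**Figure D4:**
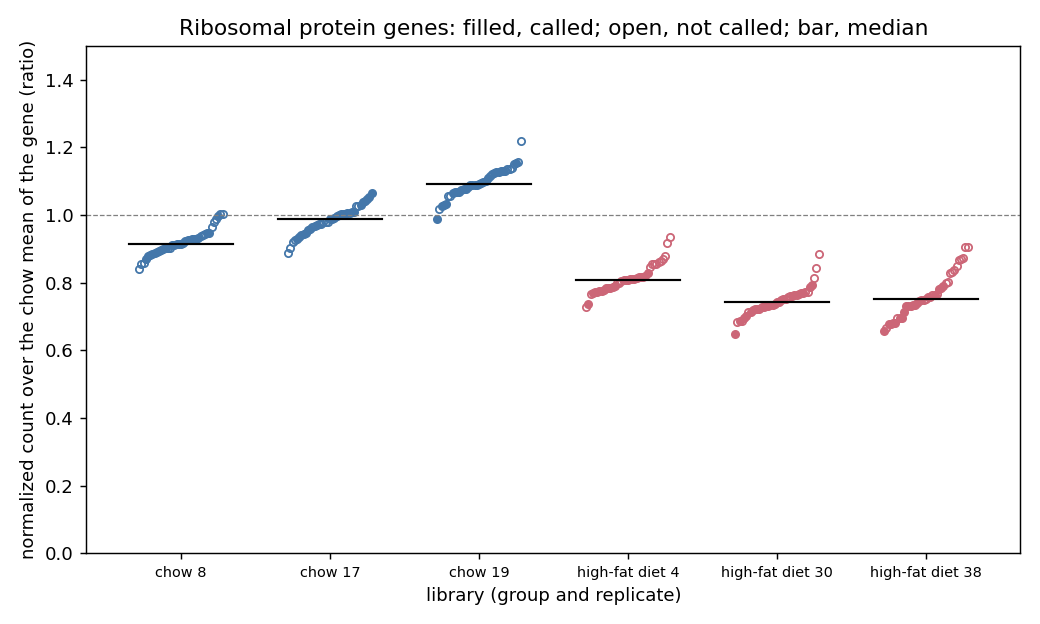
Each point is 1 of 39 ribosomal protein genes in 1 library, as its normalized count divided by its mean in chow, filled where the gene was called and open where it was not; bars are medians. Medians are 0.915 to 1.09 in the chow libraries and 0.742 to 0.809 in the high-fat diet libraries.

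Few members were called in the list of hepatocyte identity and related transcription factors. Of 53 measured 6 fell and 2 rose, and 7 of the 47 with a mean of at least 50 were called (14.9%, against 10.2% of all such genes). The 22 with chow counts were evenly split, 11 lower and 11 higher with high-fat diet, at a median log2 ratio of -0.04. Hnf4a, a nuclear receptor central to hepatocyte genes, had 20341, 19244 and 19389 normalized counts in chow and 14254, 15728 and 10463 with high-fat diet (1.46-fold lower). Foxa3 fell 1.84-fold, Cebpa 1.31-fold, Klf15 1.46-fold, and Nr0b2, the bile acid induced repressor SHP, 2.32-fold. The immediate early gene Egr1 fell 2.45-fold, from 417, 556.5 and 398 to 67.6, 229.9 and 263 normalized counts. Klf6, a Krüppel-like factor of tissue injury, rose 2.02-fold with overlapping groups. None of the 8 passed edgeR. Of the 10 hepatocyte markers Apoa1, Serpina1a and Hnf4a fell and none rose (30% called at a mean of at least 50). The sum over the 7 with chow counts was 1769832 to 1939271 normalized counts in chow and 1308863 to 1726409 with high-fat diet.

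Tight junction genes, which seal bile canaliculi from the blood side of the hepatocyte, fell where they were called: 5 of 15 measured, and 5 of the 12 with a mean of at least 50 (41.7%), with none higher. Ocln, which encodes occludin, had 445, 362 and 517 normalized counts in chow and 222, 186 and 204 with high-fat diet, 2.16-fold lower (edgeR adjusted p = 0.0397). Marveld2, which encodes tricellulin, fell 1.86-fold, and the claudins Cldn1, Cldn3 and Cldn12 fell 1.81-fold, 1.67-fold and 1.36-fold. Over the 9 members with chow counts the summed level was 4956 to 5497 normalized counts in chow and 3541 to 3809 with high-fat diet, with no overlap. Refitted with DESeq2, 3 of the 5 passed, and 4 without high-fat diet replicate 38. Ocln lies at chr13:100496507-100552718 on the minus strand.

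Plasma complement and coagulation genes moved in both directions. Of 63 measured 10 fell and 7 rose, and 15 of the 56 with a mean of at least 50 were called (26.8%). The falls were genes that hepatocytes express: the terminal complement genes C8b (3.68-fold), C6 (2.63-fold) and C8a (1.8-fold), Klkb1, plasma prekallikrein (1.73-fold), and Vtn, F10, Kng1, Proc, Serpinc1 and Serpinf1. The rises included the macrophage genes C1qa, C1qb and C1qc (1.53-fold to 1.73-fold), C3ar1 and F13a1, with C4b at 1.39-fold. A DESeq2 refit kept 3 of the 10 falls, and 2 without high-fat diet replicate 38 or chow replicate 8.

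Genes that carry sugar into glycolysis rose without exception among the called. Of 41 glycolysis and fructose genes measured 13 rose and none fell, and 12 of the 36 with a mean of at least 50 were called (33.3%). Pklr, the liver form of pyruvate kinase, had 1559.6, 1174 and 1389.7 normalized counts in chow and 3995.5, 2951 and 5122 with high-fat diet, 2.93-fold higher (edgeR adjusted p = 0.0361). Hk2, a hexokinase that is scarce in normal hepatocytes, had 38, 25 and 28.1 against 85.6, 79 and 180.4 (3.79-fold), and Pkm, the pyruvate kinase of other tissues, 228, 207 and 207 against 335, 322 and 621.5 (1.99-fold). In Hk2 and Pkm high-fat diet replicate 38 was well above the other two libraries of its group.

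The glucose transporter Slc2a2 rose 1.61-fold, from 6443, 5771 and 6582 to 11137, 9637.5 and 9427 normalized counts. Gckr, which holds glucokinase in the nucleus, rose 1.49-fold, and the fructose enzymes Khk and Tkfc rose 1.4-fold and 1.49-fold. Gapdh, Eno1, Pgam1 and Gpd2 were higher by 1.27-fold to 1.4-fold. Of 25 glycogen genes 5 rose and none fell (18.2% called at a mean of at least 50), among them Gbe1, the branching enzyme (1.5-fold), Gyg, glycogenin (1.94-fold), and Pgm1 (1.7-fold). Summed over the 24 glycolysis and fructose members with chow counts, the groups overlapped, at 215454 to 276178 normalized counts in chow and 215315 to 252980 with high-fat diet. Under the DESeq2 refit 6 of the 13 passed, and 3 without either high-fat diet replicate 38 or chow replicate 8.

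Carriers of small organic acids changed in a mixed way that separated the members of the monocarboxylate transporter family. Slc16a6, which exports ketone bodies from the liver, rose 3.81-fold, from 71, 53.7 and 66 to 232.5, 213 and 280.3 normalized counts (edgeR adjusted p = 0.0113). Slc16a5 rose 2.23-fold, from 459.6, 384 and 405.5 to 913.5, 926 and 941, Slc16a11 2.21-fold and Slc16a7 1.51-fold. Slc16a1, the lactate and pyruvate carrier MCT1, fell 1.72-fold, from 2039, 1887 and 2167 to 1201.5, 1103 and 1232 (edgeR adjusted p = 0.0454). Of these 5 genes all but Slc16a7 passed edgeR (adjusted p = 0.187).

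Slc13a3, a sodium-coupled dicarboxylate transporter, had 169.8, 163.5 and 83.3 normalized counts in chow and 731, 737 and 539 with high-fat diet (4.82-fold higher, edgeR adjusted p = 0.0229). Slco2a1, the prostaglandin transporter, fell 2.7-fold, from 926, 942 and 1007 to 379, 417 and 267, and Slc22a28, an organic anion transporter, fell 4.12-fold and 9.23-fold without high-fat diet replicate 30. The mitochondrial carrier Slc25a47 rose 1.55-fold, and the zinc importers Slc39a4 and Slc39a5 rose 1.88-fold and 3.27-fold (5.32-fold without chow replicate 8), in a list of zinc and selenium genes with 27.3% called, while the zinc exporter Slc30a1 and the manganese exporter Slc30a10 fell 1.47-fold and 2.27-fold. Of 51 carriers of amino acids and organic ions 8 rose and 4 fell (22.9% called at a mean of at least 50), among the rises Slc1a4, a neutral amino acid carrier, at 1.95-fold. Of the 8 rises the DESeq2 refit kept 4, and 3 without high-fat diet replicate 38.

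Lipid genes of several steps moved in different directions. Of 38 lipid droplet genes 10 rose and none fell (30% called at a mean of at least 50). Cidea, which enlarges droplets by fusing them, had 11, 1.2 and 2.2 normalized counts in chow and 203, 68.7 and 149.9 with high-fat diet. It was 29.3-fold higher (edgeR adjusted p = 0.0361) and 82.5-fold without chow replicate 8. Its relative Cidec rose 7.27-fold, the droplet coat gene Plin4 3.89-fold, from 1061, 697.5 and 710.5 to 3181, 1983 and 4437 normalized counts, and the fatty acid binding protein Fabp4 3.78-fold. In the list of glycerolipid synthesis and fatty acid activation 5 of 44 rose and 5 fell (26.3% called at a mean of at least 50). Gpat3, Agpat1 and Mogat1, which make glycerolipid precursors, rose 2.31-fold, 1.78-fold and 4.32-fold, and Acot11, an acyl-CoA thioesterase, rose 4.1-fold, from 148, 86.1 and 83.3 to 514, 499 and 287. The thioesterase Acot1 fell 2.77-fold, the peroxisomal enzyme Ehhadh 2.15-fold, and Klb, the co-receptor of FGF21, 1.89-fold.

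Among 30 sphingolipid genes 4 rose and 1 fell (21.7% called at a mean of at least 50). Smpd3, neutral sphingomyelinase 2, which releases ceramide from sphingomyelin, had 11.8, 12.5 and 23.8 normalized counts in chow and 183, 140.5 and 278 with high-fat diet, 12.5-fold higher (edgeR adjusted p = 0.0137). Sptlc2, a subunit of the first enzyme of sphingolipid synthesis, rose 1.46-fold, the ceramide synthase Cers6 1.78-fold and the ceramidase Asah2 1.45-fold. Sgms2, which turns ceramide into sphingomyelin, fell 1.43-fold. Of these 5 genes Smpd3 alone passed edgeR. Smpd3 lies at chr8:106252548-106337988 on the minus strand.

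In the methionine and one-carbon cycle 5 of 35 genes fell and 2 rose (20.6% called at a mean of at least 50). Gnmt, which uses up S-adenosylmethionine, fell 1.91-fold, from 30310.3, 30417 and 34506 to 18516, 19909 and 11339 normalized counts, Ahcy fell 1.71-fold, and Cbs and Cth, the enzymes from homocysteine to cysteine, fell 1.86-fold and 2.0-fold. Csad, the taurine-making decarboxylase, fell 2.6-fold, from 6974, 8484 and 6332 to 3335, 2167.5 and 2892 (edgeR adjusted p = 0.0401). Mthfd1l, a mitochondrial enzyme that releases formate, went the other way, from 22.8, 21.2 and 23.8 to 136, 73.4 and 178 normalized counts (5.72-fold). Nmrk1, a nicotinamide riboside kinase that feeds NAD synthesis, rose 2.29-fold, and Acmsd, which diverts tryptophan carbon from NAD synthesis, fell 2.96-fold, as did Afmid, a kynurenine-pathway enzyme (1.68-fold), and the NAD-dependent deacetylase Sirt1 (1.61-fold). In that list of 26 genes for tryptophan and nicotinamide 15.4% were called.

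Retinoid genes gave 4 rises and 2 falls of 28 (26.1% called at a mean of at least 50). The retinoic acid receptor gene Rarb rose 2.37-fold, and Rarres1, a retinoic acid responsive gene, 2.06-fold, from 564, 578 and 556 to 1075.5, 1097 and 1325.5. Cyp26a1, which degrades retinoic acid, fell 2.99-fold, from 176, 146 and 301 to 57.4, 52.7 and 97.8, and the retinol saturase Retsat fell 1.87-fold.

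Hepatocyte zones along the lobule are known by pericentral and periportal genes, and pericentral members moved both ways. Of 32 pericentral genes 6 rose and 5 fell (39.3% called at a mean of at least 50), while of 31 periportal genes 1 rose and 3 fell (13.3%). Glul, the glutamine synthetase of the innermost pericentral cells, rose 1.73-fold, from 14246.5, 13364 and 11463 to 24717, 23029 and 19759 normalized counts, and Rcan1, a calcineurin regulator, rose 2.46-fold and the glutathione transferase Gstm3 2.68-fold. Cyp1a2, a pericentral cytochrome P450, fell 4.07-fold, from 4054, 7180.0 and 5843 to 1272.5, 2223 and 697.5. The periportal genes Cyp2f2, Agxt and Serpina1c fell 1.45-fold, 2.17-fold and 2.0-fold, and Aldh1b1, a mitochondrial aldehyde dehydrogenase, rose 2.53-fold.

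The actin genes that were called all rose. Of 41 genes of the actin cytoskeleton 11 rose and none fell, all among the 37 with a mean of at least 50 (29.7%). Actg1, cytoplasmic gamma-actin, had 1057, 1072 and 986 normalized counts in chow and 2121, 2718 and 1782 with high-fat diet, 2.12-fold higher (edgeR adjusted p = 0.0453). Actb, often used as a reference gene, was 1.43-fold higher, from 13252, 14254 and 12319 to 18422, 18864 and 19662. Tpm1, Vim, Tagln2, Tmsb4x, Flna, Gsn, Actn1, Myh9 and Capg rose 1.33-fold to 3.59-fold. Of 16 tubulin and microtubule genes 1 rose and 2 fell (25% called at a mean of at least 50). Tubb6 rose 2.42-fold, and Tuba4a and Tubb4b fell 2.15-fold and 1.78-fold. A DESeq2 refit kept 9 of the 11 actin genes, but 1 without high-fat diet replicate 38 and 2 without chow replicate 8.

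Calcium-dependent membrane binders and galectins rose in 6 of 25 members measured, with no fall (21.1% called at a mean of at least 50). Anxa2 had 176, 123.5 and 129 normalized counts in chow and 607, 526 and 921 with high-fat diet (4.8-fold, edgeR adjusted p = 0.0157), Anxa5 rose 2.41-fold, the galectin-binding Lgals3bp 1.54-fold, and Lgals1, galectin-1, rose 4.53-fold, from 685, 349 and 297 to 1824, 1768 and 2440.3. Tead1, a transcription factor partner of YAP, rose 2.4-fold, from 266, 263 and 219.5 to 566, 506 and 728 (edgeR adjusted p = 0.0318). In the list of YAP and TEAD genes the receptor kinase Axl also rose (1.66-fold) and Wwc1, an activator of the opposing Hippo pathway, fell (1.49-fold). Of the 17 measured 2 rose and 1 fell (25% called at a mean of at least 50). The TEAD motif GGAATG, on either strand, was in 18.3% of start-site windows of genes higher, 11.3% of genes lower and 14.6% of all windows. Wfdc2 and Pkhd1, genes of bile duct cells, rose 5.0-fold and 2.26-fold, and Krt23, a keratin of stressed hepatocytes and ducts, 2.86-fold.

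**Figure D5:**
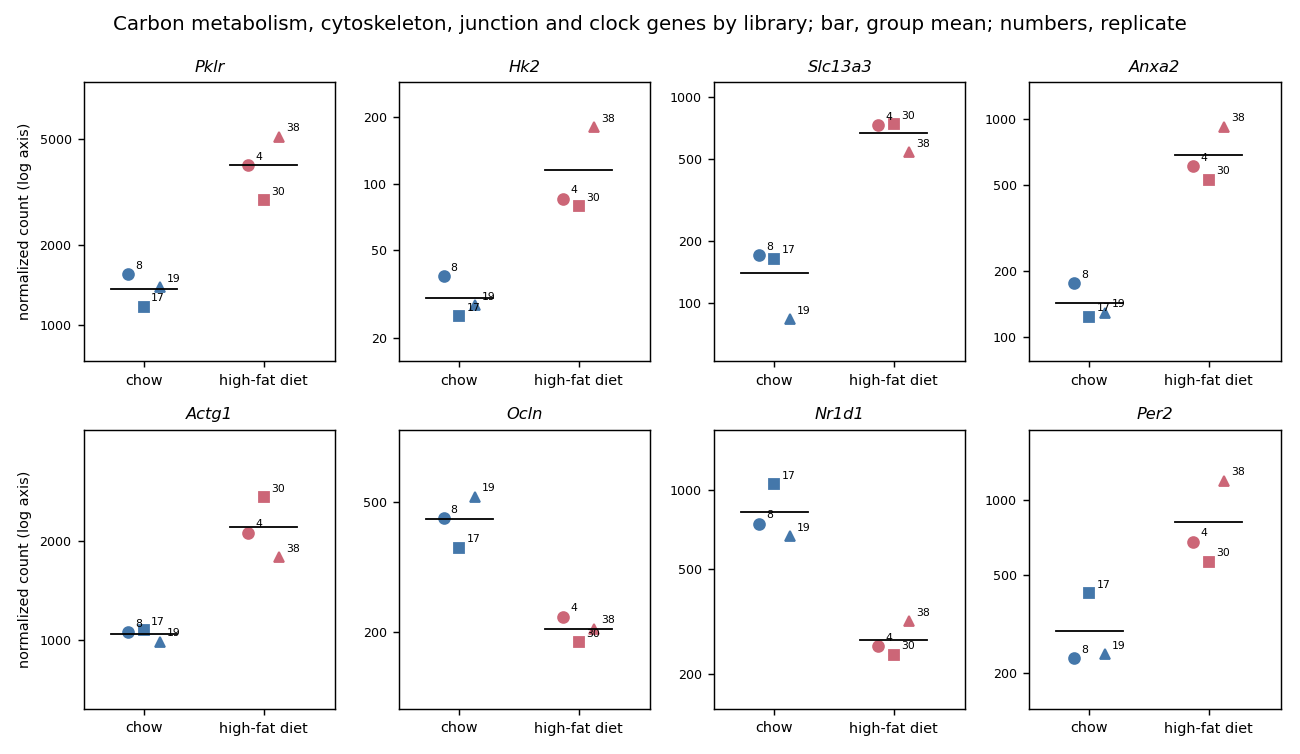
Points are normalized counts of 1 library each on log axes, with the replicate number beside each and group means as bars, for genes of carbon metabolism, the cytoskeleton, the tight junction and the clock. Ocln and Nr1d1 are lower and the 6 others higher in every high-fat diet library, and high-fat diet replicate 38 is the highest for Pklr, Hk2, Anxa2 and Per2.

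Some markers of macrophages, stellate cells and adipocytes were also higher with high-fat diet. Of 22 Kupffer cell and macrophage markers 10 rose and none fell (47.1% called at a mean of at least 50). A DESeq2 refit passed 3 of the 10, 0 without high-fat diet replicate 38 and 1 without chow replicate 8. Their level, summed over the 12 with chow counts, ranged from 4581 to 6289 normalized counts in chow and from 7645 to 11758 with high-fat diet. Adgre1, a macrophage surface receptor, rose 1.72-fold, Vsig4 1.69-fold, Lyz2 1.59-fold, Mpeg1 1.63-fold, Cd5l 1.8-fold and Trem2 4.94-fold, or 3.02-fold without high-fat diet replicate 38. Gpnmb, a marker of lipid-laden macrophages, rose 13.8-fold, 5.16-fold without high-fat diet replicate 38 and 9.23-fold without chow replicate 17. Of 21 stellate cell and fibroblast markers 8 rose and none fell (35.3% called at a mean of at least 50; 5 in the DESeq2 refit, 4 without high-fat diet replicate 38), with sums over 10 genes of 2287 to 2411 in chow and 4470 to 6869 with high-fat diet. Col1a1, a chain of type I collagen, had 77.7, 37.4 and 58.4 normalized counts in chow and 477, 466 and 578 with high-fat diet, 8.76-fold higher (edgeR adjusted p = 0.00509), with every high-fat diet library far above chow. Col1a2 rose 3.57-fold, Col3a1 5.51-fold, Gas6 2.27-fold, Pdgfrb 1.58-fold, Dpt 2.04-fold and Tagln 2.02-fold. Timp1 had no count in chow and 11.2, 8 and 21.7 normalized counts with high-fat diet, at least 13.2-fold higher by a floor of 3 counts over the chow group.

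Of 9 cholangiocyte markers measured 2 rose, Pkhd1 and Spp1, which encodes osteopontin (66.7% called of only 3 with a mean of at least 50). Spp1 rose 4.11-fold, and 2.6-fold without high-fat diet replicate 38. Sums over the 4 cholangiocyte markers with chow counts were 375 to 424 in chow and 733 to 1356 with high-fat diet. Of 9 adipocyte markers 3 rose, Cidec, Lipe and Fabp4 (60% called of only 5 with a mean of at least 50). Sums over 4 genes were 449 to 911 in chow against 2051 to 4144 with high-fat diet. Hepatocytes that store fat also express these genes. Endothelial markers did not move one way, with Lyve1 up 1.52-fold and Kdr and Bmp2 down 1.46-fold and 2.12-fold of 17 (18.8% called at a mean of at least 50). No lymphocyte, neutrophil, erythroid, mesothelial, muscle or acinar marker was called, and Ly6g (neutrophils) and Myh4 (muscle) were at 0 in the high-fat diet libraries. Outside the erythroid list few of these had a mean of at least 50, namely 1 lymphocyte, 1 neutrophil, 1 mesothelial, 1 acinar and 0 muscle markers. No chow counts were at hand for the lymphocyte, neutrophil, muscle and acinar markers, so these could not be compared with chow. The part of a changed cell mix in the rises of actin, annexin, complement C1q and matrix genes was not tested.

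Matrix-related genes beyond the markers moved both ways. Loxl2, which cross-links collagen, rose 2.26-fold, the procollagen protease Adamts2 2.06-fold, and Thbs1, thrombospondin-1, 2.84-fold, from 76.9, 76.1 and 86.5 to 176, 179 and 326. Serpine2, a protease inhibitor, fell 3.54-fold, from 414, 409 and 388 to 99.2, 172 and 71.7 (edgeR adjusted p = 0.0428), and the membrane metalloproteinase Mmp14 fell 1.4-fold. In the transforming growth factor beta list (34.8% called at a mean of at least 50) 6 of 29 rose, with Ltbp1 at 1.75-fold and Fstl1 at 1.9-fold, and 3 fell, the activin subunit gene Inhbc (2.1-fold), Bmp6 (1.91-fold) and the inhibitory Smad7 (1.61-fold).

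Interferon-induced genes rose in 10 of 52 members measured and fell in none; 9 of the 45 with a mean of at least 50 were called (20%). Ifi27l2b had 39.7, 18.7 and 20.5 normalized counts in chow and 409.6, 300.2 and 549.8 with high-fat diet, 15.9-fold higher (edgeR adjusted p = 0.00695). Its relative Ifi27l2a had 36.3, 22.5 and 41.1 against 69.6, 114 and 130.4 (3.15-fold), the immunoproteasome subunit Psmb9 rose 2.35-fold, the guanylate-binding protein Gbp3 2.21-fold and Xaf1 2.25-fold. Ubd, a ubiquitin-like modifier that interferon induces, rose 11.2-fold, from 6.8, 7.5 and 11.9 to 51.1, 35.9 and 206, but 4.99-fold without high-fat diet replicate 38. Of the 10, 4 passed the DESeq2 refit, and 2 without that library.

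Clock genes changed on both sides of the loop. Of 27 measured 6 rose and 4 fell, and 8 of the 23 with a mean of at least 50 were called (34.8%). Nr1d1, the repressor REV-ERB alpha, had 743, 1049 and 666 normalized counts in chow and 256, 237 and 317 with high-fat diet, 3.03-fold lower (edgeR adjusted p = 0.0252). The activators Arntl (BMAL1) and Clock fell 2.35-fold and 1.71-fold, and Rora fell 1.42-fold. Per2 had 229.8, 420.5 and 239 against 680.0, 563 and 1197 (2.74-fold higher), Per3 rose 2.53-fold, Ciart 1.56-fold and Rgs16, a rhythmic regulator of G protein signalling, 2.92-fold. Dbp, a clock output gene, was not called, with 762, 1223 and 1161.5 against 1179, 1230.2 and 1360.3. The DESeq2 refit passed 5 of the 6 rises and 3 of the 4 falls, but 2 and 1 without either high-fat diet replicate 38 or chow replicate 8. The time of day of collection, which the labels do not give for either group, cannot be told apart from the diet for these genes.

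Stress-related lists differed in their share of calls. Of 25 p53 targets 5 rose and none fell (20% called at a mean of at least 50), with Eda2r at 3.63-fold, Gadd45a at 2.17-fold, Btg2 at 2.21-fold and Plk3 at 1.61-fold. In the integrated stress response 4 of 26 rose and 3 fell (35.3%): the secreted stress hormone Gdf15 went from 176, 82.4 and 175 to 415, 532 and 293 (2.86-fold) and Chac1 rose 1.89-fold, whereas Atf5 fell 1.96-fold, from 3084.5, 3208 and 3070.2 to 1737, 1627 and 1419 (edgeR adjusted p = 0.0342). The endoplasmic reticulum list (9.68%) and the lysosome and autophagy list (11.6%) had shares near that of all genes. In the former Dnajc10, a disulfide reductase, rose 1.39-fold and Herpud1 fell 1.31-fold. In the latter Hexa rose 1.71-fold and the cathepsins Ctss and Ctsa 1.75-fold and 1.38-fold, and the autophagy receptor Sqstm1 fell 1.38-fold.

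Other lists with few calls, or with calls both ways, are given by their members. In cell adhesion (9.68% called at a mean of at least 50) Vcam1 rose 1.9-fold, Nid1 1.74-fold, and the tetraspanin Cd63 4.15-fold, or 2.19-fold without high-fat diet replicate 38. In the citric acid cycle and pyruvate list (10.3%) Pdk4, which blocks pyruvate entry, rose 1.69-fold, Idh2 1.59-fold and the pyruvate carrier Mpc1 1.25-fold. Among peroxisome genes (7.89%) Crat, carnitine acetyltransferase, fell 1.36-fold. Among phospholipid genes (8.33%) Gpcpd1 rose 2.0-fold, and Cept1 and Selenoi, which make phosphatidylethanolamine, fell 1.39-fold and 1.41-fold. These 4 lists had shares near or below that of all genes.

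Among chromatin genes (14.3%) Hmgn2, a nucleosome-binding protein, rose 2.5-fold (edgeR adjusted p = 0.0263), H3f3b rose 1.7-fold and the histone gene Hist1h4h fell 1.68-fold. In hormone receptors and their signalling (20.5%) 4 of 48 rose and 5 fell. The adenosine receptor Adora1 rose 2.06-fold. Dio1, the deiodinase that activates thyroid hormone, rose 1.88-fold, Galk1, galactokinase, 1.4-fold, and Aacs, which uses ketone bodies for lipid synthesis, 3.11-fold. In chemokines, cytokines and their receptors (26.7%) 4 of 57 rose and 4 fell, with Ccl6 at 1.91-fold and Tnfrsf19 at 2.55-fold among the rises. Il1rn, the interleukin-1 receptor antagonist, rose 2.94-fold, and Il1rap, a chain of the interleukin-1 receptor, fell 1.77-fold.

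Genes that are not protein-coding made up 71 of the 1226, 44 higher and 27 lower, of which 40 were long noncoding genes (21 higher and 19 lower) and 16 pseudogenes. 9030619P08Rik had 25.3, 28.7 and 23.8 normalized counts in chow and 150.3, 168 and 182.5 with high-fat diet, 6.43-fold higher (edgeR adjusted p = 0.00509). Gm19619 rose 5.61-fold and Gm42031 4.43-fold, and the vault RNA gene Vaultrc5 rose 4.25-fold, or 2.6-fold without high-fat diet replicate 30. Cyp2c53-ps, a cytochrome P450 pseudogene, had 81.9, 185 and 155 against 8.8, 31.1 and 4.3, 9.52-fold lower and 21.4-fold without high-fat diet replicate 30. Its level in high-fat diet replicate 38 rests on few reads. Gm31583 fell 3.89-fold, the Mup pseudogene Mup-ps22 2.94-fold, and Gm15441 2.79-fold, or 1.85-fold without chow replicate 17. Pseudogene reads may come from the parent genes, and if the counting ignored strand, reads of an antisense gene cannot be told from those of its partner.

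Levels in the injected high-fat diet livers are given beside these for a few genes, on the same scale; comparisons of those groups with chow share the chow libraries with the diet comparison. Cyp2b9 had 3468, 8178 and 3913 normalized counts in the vehicle libraries and 5126, 3372.5 and 3359 in the PCN libraries, all far above the chow libraries. Srd5a1 had 351, 219 and 179.5 and 285, 364 and 252, and Srgap3 22.2, 5.8 and 8 and 9.7, 26.5 and 26.5, all below every chow library. Mup8 varied widely, with 269.9, 18.4 and 72.8 in vehicle and 66.2, 184 and 31.6 in PCN libraries, and Mup14 had 7858, 697.5 and 2320.1 in vehicle libraries, so that vehicle replicate 15 lay within the chow range of both. Pklr had 1358, 1414 and 1398.5 in vehicle libraries, inside the chow range. For Pklr, Mup8 and Mup14 the vehicle group thus overlapped chow, while for Cyp2b9, Srd5a1 and Srgap3 neither injected group did.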

How the data were processed

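RNA of mouse liver was sequenced in 6 uninjected libraries, 3 per group. Per the submitters' processing notes, HISAT2, HTSeq and DESeq2 were the tools for alignment, counting and testing, on GRCm38 (mm10). Versions, annotation and strand setting are not given in the sources used here. Read counts were deposited raw, per gene. The deposited mean, log2 fold change, Wald score, p-value and adjusted p columns are the authors' DESeq2 output, per the file headers. The authors' diet table holds called genes only, so the median over all genes tested cannot be given beside a list's; the share of genes called stands in.

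Size factors were recovered from the deposited means and counts (largest relative error 0.0241%), and the number of genes tested, 25255, from the adjusted p-values (estimates from 23532 to 25425). A count divided by its size factor is the normalized count used throughout, and log2 ratios are of group means. Calls are the authors' adjusted p under 0.05. edgeR 4.0.16 (quasi-likelihood, R 4.3.3), with the dispersion trend and prior of the complete table of uninjected and vehicle-injected high-fat diet, was the second test, adjusted over the number tested; it was tested on simulated data. DESeq2 1.42.0 was refitted on the genes with counts in both groups, with the dispersion trend and prior variance of the same complete table. Its p-values were adjusted for the listed genes only, over the number tested. The refit is thus not a repeat of the authors' own fit. Total counts of chow libraries are not known from these tables, and depth there is read from size factors.

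Members and lists were chosen with earlier results of these data known. Named genes were, among those called: the 12 largest ratios in each direction (mean of at least 50, groups not overlapping), the 8 largest differences, up to 5 per list, the 4 widest gaps between groups (mean of at least 200), 4 noncoding genes per direction and all cell type markers; a few genes that this rule picks are not reported here. Further members of the lists, and genes that were not called, were named after their values were seen. Start-site sequences are RefSeq's (GRCm38.p6). Of the diet table's genes 1225 were found by gene identifier in GENCODE M21, and 94.2% of these lay at the same position.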

Additional observations from a re-analysis of the deposited data

How the results depend on the processing

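Against 1226 genes called by the authors, 650 had an adjusted p under 0.01 and 465 differed at least 2-fold. A DESeq2 refit, with the dispersion trend and prior of uninjected and vehicle-injected high-fat diet, passed 607 (402 higher and 205 lower). The minimum mean of 10 or 50 left 1208 and 1063. The count of 117 past edgeR was 117 with TMM factors, 262 with a minimum mean of 10 before adjustment and 62 with trend and prior from the listed genes themselves. Leaving out 1 library gave 10 to 75 genes. No paired analysis was possible because the replicate numbers of the groups differ.

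Counts of list members under the DESeq2 refit, an alternative added after seeing the data as were those without high-fat diet replicate 38 and without chow replicate 8, were as follows. Major urinary proteins went from 10 lower to 8, 4 and 8 in that order, male-biased genes from 11 to 9, 7 and 10, and female-biased genes from 13 higher to 11, 10 and 11. Ribosomal proteins went from 20 to 0, 0 and 0, tight junction genes from 5 to 3, 4 and 3, and complement and coagulation genes from 10 lower to 3, 2 and 2. Glycolysis and fructose genes went from 13 to 6, 3 and 3, actin genes from 11 to 9, 1 and 2, interferon-induced genes from 10 to 4, 2 and 4, and solute carriers from 8 to 4, 3 and 4. Lipid droplet genes went from 10 to 8, 7 and 8, clock genes from 6 higher to 5, 2 and 2 and from 4 lower to 3, 1 and 1, macrophage markers from 10 to 3, 0 and 1, and stellate cell markers from 8 to 5, 4 and 5. The settings that leave out a library fit fewer samples; other causes were not tested. Of 1589 recomputed ratios of 227 named genes 0 changed direction and 11 moved by more than 1 SD. These 11 were 4 without chow replicate 8, 3 without high-fat diet replicate 30 and 4 without high-fat diet replicate 38. Where the groups do not overlap, leaving out a library cannot reverse a ratio, so for those genes the direction was fixed in advance. TMM factors moved log2 ratios by a median of 0.022.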

Other observations

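Some genes with a mean of at least 50 normalized counts were not called by the authors although their groups did not overlap. Mmp12, macrophage metalloelastase, had 12.7, 5 and 14.1 normalized counts in chow and 47.2, 39.9 and 269.5 with high-fat diet, the last of them from replicate 38. Cfd, which encodes adipsin, a complement factor of fat cells, had 98.8, 34.9 and 8.7 against 353, 301 and 161. The macrophage gene Cd68 had 59.1, 61.1 and 60.6 against 75.4, 108 and 191, and Cyp7b1, an oxysterol hydroxylase, 2239, 4458.5 and 3567 against 902, 1997 and 611. Cyp4f14, a leukotriene and vitamin E hydroxylase, had 2891, 2877.5 and 2881 in chow, an even level, and 1069.6, 1763.5 and 454 with high-fat diet. Serpina3k had 169568.5, 222118 and 190615.5 against 81973.5, 123103 and 33701.5. In Cyp7b1, Cyp4f14 and Serpina3k high-fat diet replicate 38 was the lowest library and replicate 30 the highest of its group, the order also seen in the male-biased falls. These genes were chosen after their values were seen.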
